A study of Mus musculus with 4 samples.

Results

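The genes that carry a cell through G1 phase were followed in RNA from embryonic mouse retinas in which the gene of the transcription factor Nrf1 was deleted. The set comprised 10 genes, picked by name from the 24062 genes of the count table: the D-type cyclins *Ccnd1*, *Ccnd2* and *Ccnd3*, their kinases *Cdk4* and *Cdk6*, the E-type cyclins *Ccne1* and *Ccne2*, the CDK inhibitors *Cdkn1b* (p27) and *Cdkn1c* (p57), and the retinoblastoma gene *Rb1*. All 10 had rows in the table and passed the filter on low counts. Retinas were taken at E13.5 from mice of a mixed C57BL/6 and 129 background, and there were 2 libraries from wildtype embryos and 2 from embryos labelled Nrf1-CKO. According to the study's methods, the mutant carried a floxed *Nrf1* allele on both chromosomes and the Six3-Cre transgene (Nrf1 f/f;Six3-Cre), and each library was made from retinas pooled over several embryos. Six3-Cre acts in the central retina, so the peripheral retina and tissue around the eye can keep *Nrf1*.

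During G1, mitogen signals raise the D-type cyclins, which activate Cdk4 and Cdk6, and these kinases phosphorylate Rb1 so that it releases the E2F transcription factors. E2F then drives the E-type cyclins and the genes of DNA replication, while inhibitors of the Cip/Kip and INK4 families hold the kinases back. In the retina, cyclin D1 is the main D-type cyclin of dividing progenitors, and p27 and p57 are linked to the exit of progenitors from the cell cycle.

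Levels are given as reads in each library and as CPM, that is reads scaled to the library's total and to edgeR's TMM factors, and log2 fold changes are the mutant minus the wildtype. A gene was called where it changed at least 1.4-fold with an adjusted p of at most 0.2 in edgeR's quasi-likelihood test. These thresholds are named in the study's methods, which applied them with Cuffdiff. The study reported fewer genes in both directions than were called here, so the calls are not the same set. Between 74577660 and 85933945 reads per library were counted on genes. The targeted gene *Nrf1* was counted 9052 and 7789 times in the 2 wildtype libraries and 8594 and 8284 times in the 2 mutant ones, a log2 fold change of -0.03. The floxed allele loses a single exon, so a count over the whole gene does not check the deletion.

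The retinal identity of the pools and the tissue around them were checked with marker lists. For comparison, 8.04% of all tested genes were called lower and 12.8% higher. Of 13 progenitor markers 2 were called lower and none higher, and their sum ranged from 6604 to 6991 CPM in the wildtype and from 5890 to 6347 CPM in the mutant. Of 10 markers of retinal ganglion cells 9 were called lower, with a sum of 1828 to 2061 CPM against 557 to 716 CPM. Of 6 markers of photoreceptor precursors 2 were called lower (357 to 364 CPM against 312 to 316 CPM), and of 6 markers of amacrine and horizontal cells 3 were called lower and 2 higher (88.7 to 96.1 CPM against 83.5 to 116 CPM). All 9 lens markers were called higher, from 133 to 370 CPM in sum in the wildtype to 3171 and 7781 CPM in the mutant, and the mutant libraries also differed from each other. Markers of macrophages and microglia were called higher for 10 of 10 genes (82.8 to 91.9 CPM against 267 to 323 CPM), those of the ciliary margin for 6 of 6 (227 to 243 CPM against 461 to 492 CPM) and those of pigment epithelium for 5 of 6 tested (162 to 227 CPM against 413 to 437 CPM, with *Rpe65* at 0 to 4 reads). The sums for endothelium (7 of 9 higher, 1 lower), periocular mesenchyme (6 of 10 higher) and erythroid cells (2 of 4 tested higher, *Hba-a1* and *Hbb-bt* at 0 reads throughout) went from 285 to 288, 141 to 198 and 550 to 650 CPM to 311 to 315, 243 to 289 and 712 to 713 CPM. The part of these shifts in the results that follow was not tested.

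Of the 10 genes, 2 were called lower (*Ccnd1* and *Cdk6*) and 2 were called higher (*Ccnd2* and *Cdkn1c*). Among all 15762 tested genes 8.04% were called lower, 12.8% higher and 20.9% in either direction. The libraries of the genotypes did not overlap for 9 of the 10 genes, against 62.5% of all tested genes, with the mutant above for 4 (30.9% of all tested genes) and below for 5 (31.6%). The median log2 fold change of the 10 genes was -0.07 and that of all tested genes was 0.00073.

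**Figure D1:**
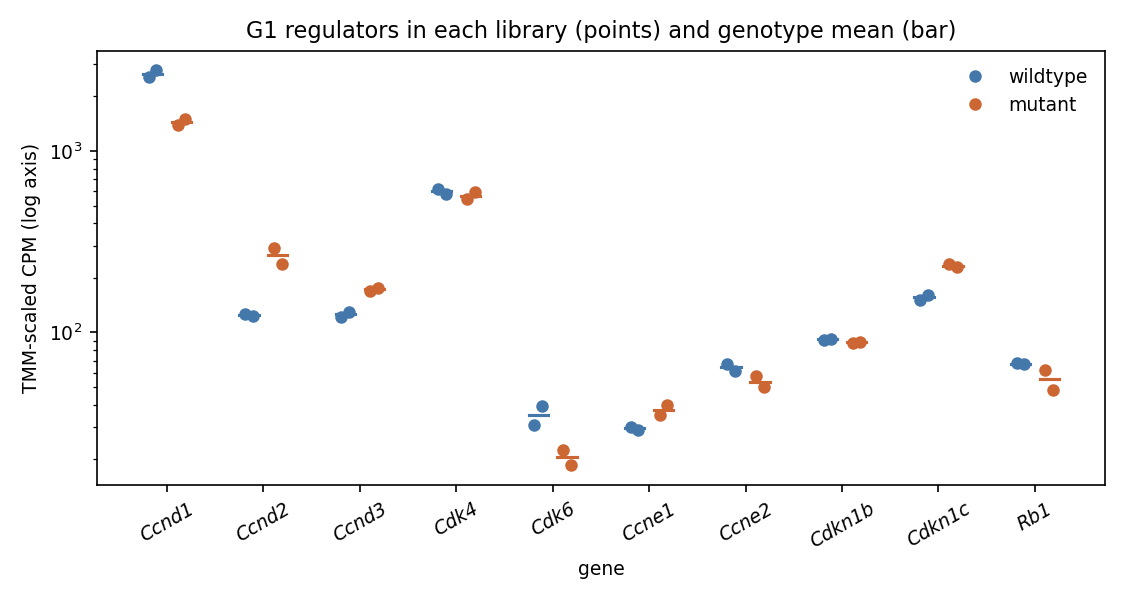
Level of each of the 10 genes in TMM-scaled CPM (log axis) in the 2 wildtype and 2 mutant libraries (points), with the genotype mean as a bar. *Ccnd1* and *Cdk6* were lower and *Ccnd2* and *Cdkn1c* higher in the mutant, and the genotypes overlapped only for *Cdk4*.

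Among the D-type cyclins, the mitogen-driven partners of Cdk4 and Cdk6, *Ccnd1* and *Ccnd2* changed in opposite directions. *Ccnd1*, on chromosome 7 of GRCm38 (chr7:144929931-144939925), reached 222561 and 205793 reads per wildtype library and 115483 and 124272 per mutant library. It fell from 2658 ± 165 to 1446 ± 79.2 CPM (SD, n = 2), which is 54.4% of the wildtype level. Both mutant libraries lay far below both wildtype libraries, and this gene alone took 0.259% and 0.276% of all counted reads in wildtype and 0.138% and 0.149% in mutant libraries. The log2 fold change was -0.88, with a standard error of 0.084, a 95% interval from -1.07 to -0.69 and an adjusted p of 0.000229 in edgeR's quasi-likelihood test. *Ccnd1* was also among the genes that the study listed from these libraries, so its direction here is not independent evidence. With limma on the deposited normalized values its log2 fold change was -0.87 and the adjusted p was 0.243, past the threshold of 0.2, while over all 14 alternative analyses it ranged from 8.85e-25 to 0.243. In these bulk libraries, fewer cyclin D1 cells and less *Ccnd1* RNA per cell cannot be told apart. The study also measured *Ccnd1* by qRT-PCR, where it fell further than in these counts. In its staining of sections, cells with cyclin D1 protein were almost missing from the central mutant retina.

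*Ccnd2* (chr6:127125162-127152193) encodes cyclin D2, which binds the same kinases. It gave 11025 and 9140 reads for the wildtype, against 24405 and 19616 for the mutant. Its level rose from 125 ± 1.88 to 265 ± 40.1 CPM, 213% of the wildtype. The wildtype libraries were nearly equal, and the mutant library with the higher *Ccnd2* was also the library with the higher sum of lens markers. That library was also the higher mutant library for markers of ganglion cells, amacrine and horizontal cells, endothelium and periocular mesenchyme. It was the lower one for the other marker lists of cell types. The other mutant library also had a raised lens sum (3171 CPM, against 133 and 370 CPM in the wildtype). The part of lens or other tissue in the *Ccnd2* value was not tested. *Ccnd2* gave a log2 fold change of 1.09, with a standard error of 0.11 and a 95% interval from 0.85 to 1.33. The adjusted p was 0.000238 in edgeR's test. Without mutant replicate 1 the log2 fold change was 0.93, an estimate that rests on 1 mutant library. Over all alternatives the adjusted p ranged from 2.66e-24 with DESeq2 to 0.103 with limma.

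*Ccnd3* (chr17:47505051-47599691), the third D-type cyclin, was counted 10634 and 9661 times in the 2 wildtype libraries and 14103 and 14537 times in the 2 mutant ones. Both mutant libraries were above both wildtype libraries, at 173 ± 4.20 against 126 ± 6.24 CPM. The log2 fold change of 0.46, with a standard error of 0.077, a 95% interval from 0.28 to 0.63 and an adjusted p of 0.00318 in edgeR's test, stayed below the 1.4-fold limit of 0.49, so *Ccnd3* was not called. It passed that limit with upper-quartile scaling (0.50) and without wildtype replicate 2 (0.51).

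The coding sequences of the families were compared, since the opposite changes rest on telling the reads of close relatives apart. Those of *Ccnd1* and *Ccnd2* are 885 and 867 bases long without the stop codon, and the longest stretch that is identical in both has 20 bases, which is shorter than the reads. It is shown in capitals within its surroundings (GENCODE transcripts of GRCm38, positions 113 to 172 of *Ccnd1* and 107 to 166 of *Ccnd2*, counted from the first base of the start codon).
Ccnd1: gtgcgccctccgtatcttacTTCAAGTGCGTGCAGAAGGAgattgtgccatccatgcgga
Ccnd2: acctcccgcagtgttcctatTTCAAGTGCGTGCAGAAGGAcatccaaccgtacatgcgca
The longest identical coding stretch was 17 bases between *Ccnd1* and *Ccnd3*, 14 bases between *Ccnd2* and *Ccnd3*, 20 bases between *Cdk4* and *Cdk6*, 18 bases between *Ccne1* and *Ccne2*, and 11 bases between *Cdkn1b* and *Cdkn1c*. Transcripts of other genes, read on either strand, held 24.9% of the 50-base stretches of *Cdkn1c*, 21.6% of those of *Ccnd1*, 17.01% for *Cdk4*, 14.4% for *Ccne2*, 11.96% for *Rb1*, 6.31% for *Ccnd2*, 5.39% for *Ccnd3*, 3.32% for *Cdk6* and 0 for *Ccne1* and *Cdkn1b*. For each of the 8 genes with such stretches, the gene that held the most of them was one that overlaps it on the opposite strand, and for *Ccnd3* the pseudogene *Ccnd3-ps* also held some.

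Exons of 8 of the 10 genes overlap exons of a gene on the opposite strand, over 30.7% of the exon length in *Cdkn1c*, 23.4% in *Ccnd1*, 19.7% in *Cdk4*, 17.4% in *Ccne2*, 14.9% in *Rb1* and 2.63% to 7.86% in *Ccnd2*, *Ccnd3* and *Cdk6*. The strand setting of the counting is not given in the sources used here, so reads from such stretches cannot be told apart or may have been left out, and the levels of these genes are uncertain to that extent. None of the 6 overlapping genes that could be tested was called, and their log2 fold changes lay between -0.19 (*Oraov1*, beside *Ccnd1*) and 0.15 (*Rcbtb2*, beside *Rb1*). In wildtype reads, *Oraov1* came to 0.781% of *Ccnd1*, *Tspan31* to 12.99% of *Cdk4* and *Bysl* to 40.2% of *Ccnd3*. The neighbours of *Rb1* came to 63.2% (*Lpar6*) and 253% (*Rcbtb2*) of its reads, and *Ints8* to 165% of those of *Ccne2*. The genes that overlap *Ccnd2*, *Cdk6* and *Cdkn1c* were not tested.

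Per kilobase of exon, *Ccnd1* made up 95.2% and 95.5% of the D-type cyclin RNA in the wildtype and 85.4% and 87.6% in mutant libraries. The share of *Ccnd2* was 2.36% and 2.12% in wildtype and 9.03% and 6.92% in the mutant, and that of *Ccnd3* was 2.44% and 2.41% against 5.60% and 5.50%. *Ccnd1* thus kept by far the greatest share in every library. The sum of the D-type cyclins was 592 ± 35.5 CPM per kilobase in the wildtype and 355 ± 13.03 in the mutant, 59.96% of the wildtype, without overlap between the genotypes. Shares within a library do not depend on scaling between libraries. They are given per library as a description, and no test was made on them.

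**Figure D2:**
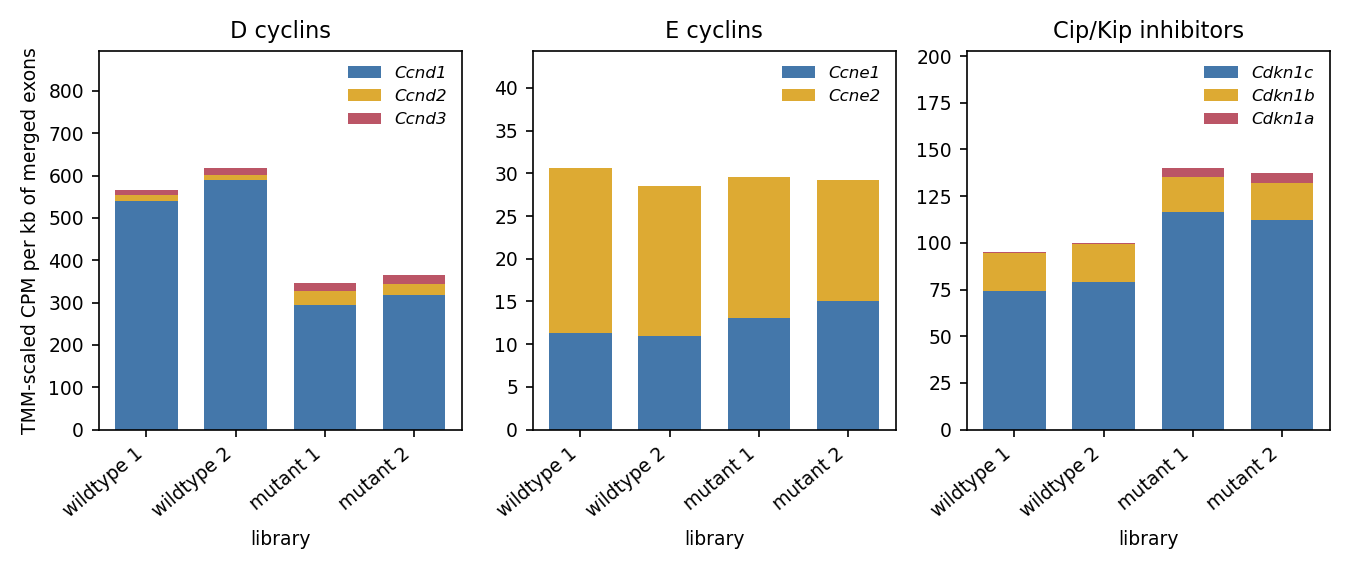
Stacked levels, in TMM-scaled CPM per kilobase of merged exons, of the D-type cyclins, the E-type cyclins and the Cip/Kip inhibitors in each of the 4 libraries. The D-type sum was 592 CPM per kilobase in the wildtype and 355 in the mutant, the E-type sum was 29.6 and 29.4, and the sum of *Cdkn1b* and *Cdkn1c* was 96.8 and 134.

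Of the kinases that the D-type cyclins activate, *Cdk6* was called lower and *Cdk4* was not called, and the difference between them was not tested. *Cdk4* (chr10:127063534-127067920) reached 54296 and 42754 reads per wildtype library and 45314 and 48852 per mutant library. It was the only gene of the 10 whose genotypes overlapped, at 598 ± 30.8 and 568 ± 31.8 CPM. In log2 terms the difference was -0.07, with a standard error of 0.085 and an adjusted p of 0.588 in edgeR's test, and the 95% interval from -0.27 to 0.12 held no change of 1.4-fold in either direction.

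*Cdk6* (chr5:3341485-3531008) gave 2712 and 2917 reads for the wildtype, against 1864 and 1540 for the mutant. It fell from 35.1 ± 5.91 to 20.5 ± 2.704 CPM, 58.4% of the wildtype level. The groups did not overlap, but the wildtype libraries themselves differed, at 30.97 and 39.3 CPM. The fitted log2 fold change was -0.78, with a standard error of 0.14, a 95% interval from -1.09 to -0.46 and an adjusted p of 0.00418 in edgeR's test, and it was -0.59 without wildtype replicate 2. Per kilobase of exon *Cdk6* made up 1.15% and 1.56% of the sum of both kinases in wildtype and 0.946% and 0.727% in mutant libraries. The sum, 187 ± 9.06 against 176 ± 9.60 CPM per kilobase, overlapped between the genotypes.

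The promoter of *Cdk4* is shown for its letters of the E-box type, sites through which Myc is known to activate *Cdk4*. *Myc* was called higher in the mutant, while its relative *Mycn* and *Cdk4* were not called. A link between these values was not tested. The window covers 250 bases before to 50 bases after the transcription start (RefSeq promoter table, GRCm38.p6, chr10:127063285-127063584, plus strand), and capitals mark the E-box letters CACGTG, which read the same on both strands.
Cdk4: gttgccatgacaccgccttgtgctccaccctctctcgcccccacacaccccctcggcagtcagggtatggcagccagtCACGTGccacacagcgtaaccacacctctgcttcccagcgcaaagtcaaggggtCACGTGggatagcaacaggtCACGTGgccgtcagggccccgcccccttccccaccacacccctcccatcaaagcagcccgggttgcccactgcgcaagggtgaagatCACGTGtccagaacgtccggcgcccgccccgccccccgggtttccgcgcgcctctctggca
These letters stood 4 times in this window, at 172, 118, 98 and 11 bases before the start. Of 32851 promoters that the table lists, 7.15% held CACGTG at least once and 8 (0.0244%) held it at least 4 times. The cutoff of 4 was taken from *Cdk4* itself. *Cdk6* held it once, and the promoters of *Ccnd3*, *Ccne1* and *Cdkn1b* did not hold it. This motif was searched after the promoters had been read, and the promoters of *Ccnd1*, *Ccnd2*, *Ccne2*, *Cdkn1c* and *Rb1* were not analysed here.

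The E-type cyclins, which activate Cdk2 at the passage from G1 to S phase and are targets of E2F, lay on opposite sides of zero, and neither was called. *Ccne1* (chr7:38097984-38107534) was counted 2641 and 2162 times in the 2 wildtype libraries and 2902 and 3305 times in the 2 mutant ones. Both mutant libraries were above both wildtype libraries, at 37.4 ± 3.55 against 29.7 ± 0.712 CPM. On the log2 scale the difference came to 0.34, with a standard error of 0.096, a 95% interval from 0.12 to 0.55 and an adjusted p of 0.0356 in edgeR's test, which is a 1.26-fold difference and below the limit of 1.4-fold.

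*Ccne2* (chr4:11191351-11204779) reached 5894 and 4566 reads per wildtype library and 4761 and 4118 per mutant library. Here both mutant libraries were below both wildtype libraries, at 53.5 ± 5.33 against 64.4 ± 4.06 CPM. The log2 fold change was -0.27, with a standard error of 0.093, a 95% interval from -0.48 to -0.06 and an adjusted p of 0.0726 in edgeR's test, which also stayed within 1.4-fold. The share of *Ccne1* in the E-type cyclin RNA was 37.0% and 38.3% in wildtype and 44.5% and 51.3% in mutant libraries, while the sum per kilobase was 29.6 ± 1.43 and 29.4 ± 0.193 CPM and overlapped between the genotypes.

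The Cip/Kip inhibitors bind and block cyclin-CDK complexes. *Cdkn1b* (chr6:134920401-134925513) gave 7997 and 6845 reads for the wildtype, against 7262 and 7366 for the mutant. At 91.8 ± 0.688 and 88.2 ± 1.14 CPM the genotypes did not overlap, yet they differed by only 1.04-fold. It gave a log2 fold change of -0.06, with a standard error of 0.073, a 95% interval from -0.22 to 0.11 and an adjusted p of 0.635 in edgeR's test, so a change of 1.4-fold lay outside the interval.

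*Cdkn1c* (chr7:143458339-143461050) was counted 13258 and 11962 times in the 2 wildtype libraries and 19694 and 18953 times in the 2 mutant ones. Its level rose from 156 ± 6.99 to 233 ± 5.64 CPM, 149% of the wildtype. The libraries of each genotype lay close together and the genotypes stood well apart. In log2 terms the difference was 0.58, with a standard error of 0.077, a 95% interval from 0.40 to 0.75 and an adjusted p of 0.000997 in edgeR's test. The interval reaches below 1.4-fold, and edgeR's test of the change against 1.4-fold itself (glmTreat) gave an adjusted p of 0.316, the highest over the alternatives, which began at 5.13e-11. *Cdkn1c* made up 78.7% and 79.6% of the RNA of both inhibitors per kilobase in the wildtype and 85.8% and 85.2% in mutant libraries. Set against the D-type cyclins, the sum of *Cdkn1b* and *Cdkn1c* per kilobase was 16.6% and 16.1% in wildtype and 39.2% and 36.2% in mutant libraries.

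*Rb1* (chr14:73183673-73325822) encodes the pocket protein that Cdk4 and Cdk6 phosphorylate. It reached 5954 and 4942 reads per wildtype library and 5189 and 3998 per mutant library. The mutant libraries were below the wildtype, but they differed from each other, at 62.5 and 48.3 CPM. The fitted log2 fold change was -0.28, with a standard error of 0.11, a 95% interval from -0.54 to -0.02 and an adjusted p of 0.118 in edgeR's test, and *Rb1* was not called. Its value depended on the mutant library that was left out, at -0.48 without mutant replicate 1 and -0.11 without mutant replicate 2.

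**Figure D3:**
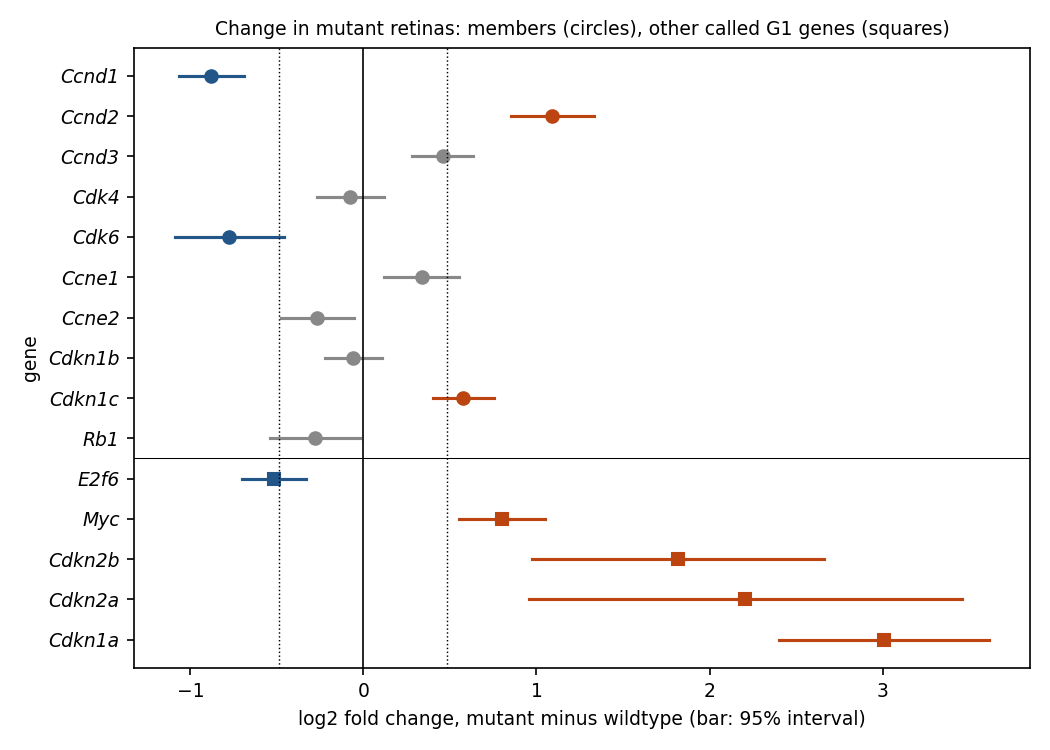
Log2 fold change, mutant minus wildtype, of the 10 genes (circles) and of the other G1 genes that were called (squares), with 95% intervals from edgeR and dotted lines at 1.4-fold in both directions. *Ccnd1* and *Cdk6* lay below and *Ccnd2* and *Cdkn1c* above these lines, while the squares include *Cdkn1a* at 3.01 and *E2f6* at -0.52.

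Per kilobase of merged exons, the wildtype order of levels was *Ccnd1* (564 ± 35.0 CPM per kilobase), *Cdk4* (184 ± 9.48), *Cdkn1c* (76.7 ± 3.43), *Cdkn1b* (20.2 ± 0.151), *Ccne2* (18.4 ± 1.16), *Ccnd3* (14.3 ± 0.711), *Ccnd2* (13.2 ± 0.20), *Rb1* (11.2 ± 0.159), *Ccne1* (11.1 ± 0.268) and *Cdk6* (2.51 ± 0.423). Only *Rb1* and *Ccne1* overlapped as neighbours. In the mutant *Ccnd1* (307 ± 16.8), *Cdk4* (175 ± 9.80) and *Cdkn1c* (114 ± 2.77) kept the first places. *Ccnd2* moved up to rank 4 at 28.2 ± 4.26 CPM per kilobase, followed by *Ccnd3* (19.7 ± 0.479) and *Cdkn1b* (19.4 ± 0.251), which overlapped. *Ccne2* (15.3 ± 1.52) and *Ccne1* (14.1 ± 1.33) overlapped as well and stood above *Rb1* (9.21 ± 1.66) and *Cdk6* (1.47 ± 0.193). With the length of the longest transcript in place of merged exons, *Ccnd3* took rank 4 in both genotypes, at 32.6 and 44.8 CPM per kilobase, and *Ccnd2* went from rank 7 (19.7) to rank 5 (41.9), so that rank 4 of *Ccnd2* in the mutant held with merged exons and not with the longest transcript.

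The other genes of G1 control were taken as a list of 31, all of them tested. Of these, 4 were called higher, 1 was called lower and 26 were not called, and the median log2 fold change was -0.05. The shares called, 12.9% higher, 3.23% lower and 16.1% in either direction, were near or below those of all tested genes (12.8%, 8.04% and 20.9%). The genes called higher were 3 CDK inhibitors and *Myc*. *Cdkn1a* (p21), the Cip/Kip inhibitor that p53 induces, gave 247 and 109 reads for the wildtype, against 1311 and 1572 for the mutant. Both mutant libraries lay far above the wildtype, and its log2 fold change was 3.01, with a standard error of 0.27 and an adjusted p of 0.000178 in edgeR's test. Even so, *Cdkn1a* reached only 4.89 ± 0.641 CPM per kilobase in the mutant, from 0.604 ± 0.269 in the wildtype, so that it made up 3.17% and 3.90% of the 3 Cip/Kip inhibitors there.

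The INK4 genes *Cdkn2a* and *Cdkn2b* encode inhibitors of Cdk4 and Cdk6, and *Cdkn2a* also encodes Arf. *Cdkn2a* was counted 20 and 12 times in the 2 wildtype libraries and 86 and 65 times in the 2 mutant ones, and its log2 fold change of 2.21 had a standard error of 0.55 and an adjusted p of 0.0200 in edgeR's test. *Cdkn2b* reached 69 and 38 reads per wildtype library and 167 and 215 per mutant library, and its log2 fold change of 1.82 had a standard error of 0.37 and an adjusted p of 0.00794 in the same test. Both rose from a very low level, at 0.195 and 0.650 CPM in the wildtype. With limma on the deposited normalized values the log2 fold changes were smaller, at 0.39 for *Cdkn2a*, which was not called, 0.53 for *Cdkn2b* and 1.69 for *Cdkn1a*, which were still called. The remaining INK4 genes *Cdkn2c* and *Cdkn2d* had log2 fold changes of -0.12 and -0.32 and were not called.

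*Myc*, a growth factor-induced activator of cell cycle genes, gave 1721 and 1273 reads for the wildtype, against 2536 and 2780 for the mutant. Its level rose from 18.4 ± 1.76 to 32.1 ± 2.17 CPM, without overlap. On the log2 scale the change came to 0.80, with a standard error of 0.11 and an adjusted p of 0.00107 in edgeR's test. Its relative *Mycn* had a log2 fold change of -0.08 (adjusted p = 0.516 in the same test) and was not called.

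*E2f6*, an E2F family member that represses and does not respond to Rb1, was the gene called lower. It was counted 6403 and 5029 times in the 2 wildtype libraries and 4226 and 3945 times in the 2 mutant ones, at 70.5 ± 3.75 against 49.3 ± 2.25 CPM. The genotypes did not overlap, and the log2 fold change was -0.52, with a standard error of 0.081 and an adjusted p of 0.00216 in edgeR's test. This lies close to the limit of 1.4-fold, and *E2f6* was called under 9 of 14 alternative analyses, with values between -0.57 and -0.46. None of the other 9 genes of the E2F and DP families on the list was called, and their log2 fold changes lay between -0.30 (*Tfdp2*) and 0.19 (*E2f3*).

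The *E2f6* promoter is shown because it held the Nrf1 motif. It lies at chr12:16810715-16811014 on the plus strand (RefSeq promoter table, GRCm38.p6, 250 bases before to 50 bases after the start), and capitals mark the 9 letters GCGCATGCG, the core of the sequence that Nrf1 binds, which begin 4 bases before the transcription start.
E2f6: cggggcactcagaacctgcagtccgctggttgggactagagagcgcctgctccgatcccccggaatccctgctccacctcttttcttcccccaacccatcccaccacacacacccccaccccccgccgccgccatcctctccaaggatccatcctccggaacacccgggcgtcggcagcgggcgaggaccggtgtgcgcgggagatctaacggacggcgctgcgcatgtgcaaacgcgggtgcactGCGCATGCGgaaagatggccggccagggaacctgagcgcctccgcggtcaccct
Both strands of each promoter were searched for GCGCATGCG, for the shorter GCATGCG that it contains, and for TTTCCCGC and TTTGGCGC, letters that E2F binds. The longer Nrf1 core stood in 1.75% and the shorter in 3.58% of the 32851 promoters of the table, and the E2F letters in 1.07% and 0.514%. Promoters of 26 of the 31 listed genes were in the table, and *E2f6* was the only gene among them with either Nrf1 core. The E2F letters stood in 7 of these genes (*Cdc25a*, *Cdk2*, *Cdkn2a*, *E2f2*, *E2f3*, *E2f7* and *Mycn*). Promoters of 5 of the 10 G1 genes were in the table (*Ccnd3* with 2 starts, *Cdk4*, *Cdk6*, *Ccne1* and *Cdkn1b*), and none of these 6 windows held any of the 4 motifs. A match describes the letters only, and binding was not measured in these libraries.

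No gene of the lists for the phases after G1 was called, where 20.9% of all tested genes were. The study counted fewer cells in S phase and in M phase in mutant sections, which levels scaled to each library do not measure. Of 22 genes of DNA replication and S phase, edgeR called 0, as did DESeq2 and limma, while 9 (40.9%) had an unadjusted p under 0.05, all of them with lower values in the mutant. Among all tested genes 34.8% had such a p, and 16.9% had it with a lower value. The median of the S phase genes was -0.11 on the log2 scale, and 19 of the 22 values were below zero. The values ran from -0.33 for the primase gene *Prim1* to 0.05 for the helicase gene *Mcm2*. Both mutant libraries lay below both wildtype libraries for 13 of the 22 genes and above for 1. Among all tested genes this held for 31.6% and 30.9%. Of 20 genes of G2 and M phase, edgeR, DESeq2 and limma called 0 and 1 had an unadjusted p under 0.05, which is 5% beside the 34.8% of all tested genes. The median was -0.02, with values from -0.15 for the mitotic kinase gene *Aurkb* to 0.25 for the cyclin gene *Ccnb1*. Of 13 p53 targets 8 (61.5%) were called higher, beside 12.8% of all tested genes, and none lower. The mutant libraries were above the wildtype for all 13, as they were for 30.9% of all tested genes. Their median was 0.95, from 0.10 for *Mdm2*, which limits p53, to 3.84 for the cell death gene *Pmaip1*, and *Cdkn1a* stands in both this list and that of the G1 genes.

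**Figure D4:**
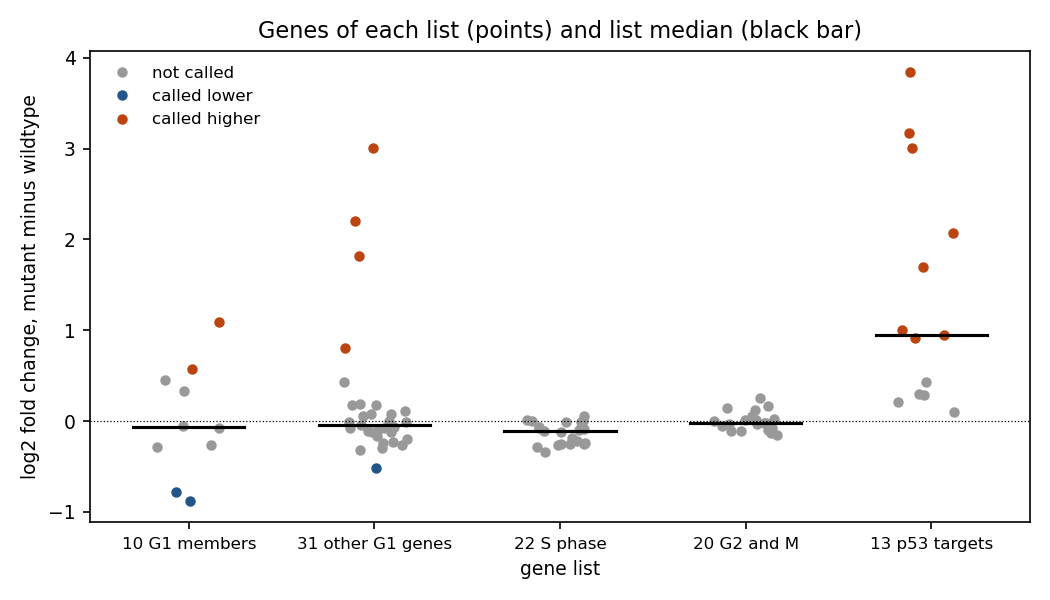
Log2 fold change, mutant minus wildtype, of the tested genes (points) of 5 lists, coloured by call, with the list median as a black bar. The medians were -0.07 for the 10 G1 genes, -0.05 for the other G1 genes, -0.11 for S phase, -0.02 for G2 and M phase and 0.95 for p53 targets.

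The direction of all 10 genes held under each of the 12 alternative analyses that estimated the change anew, while 2 others (glmTreat and an adjusted p of at most 0.05) used the same log2 fold changes with another criterion. Over all 14, 136 of 140 values kept their side of the call. The exceptions were *Ccnd1* with limma, *Cdkn1c* with glmTreat, and *Ccnd3* with upper-quartile scaling and without wildtype replicate 2.

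**Figure D5:**
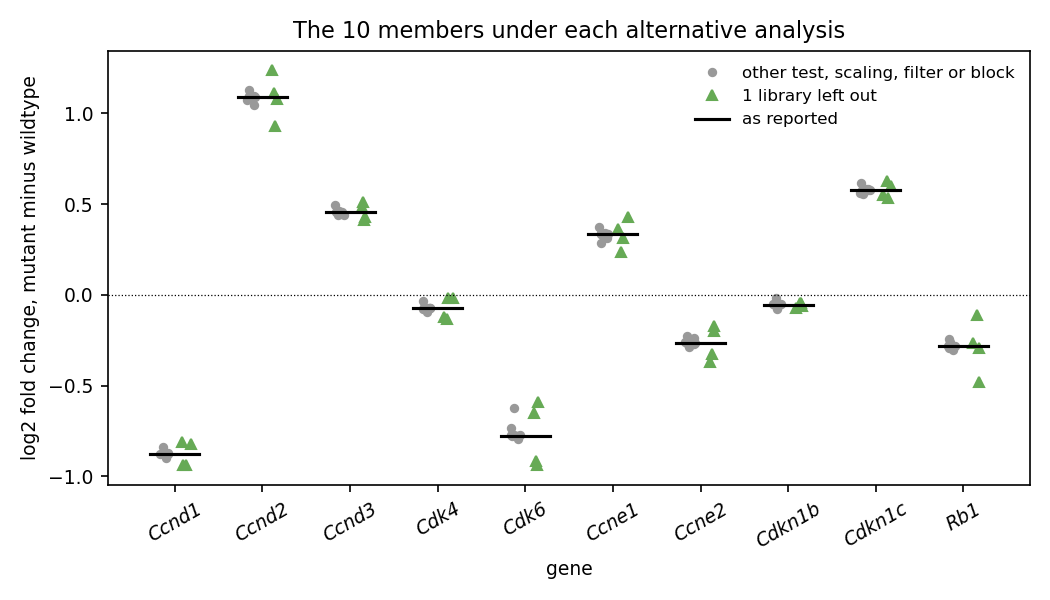
Log2 fold change, mutant minus wildtype, of the 10 genes as reported (black bars), under other tests, scalings, filters or a replicate block (grey points) and with 1 library left out (green triangles). All values of a gene stayed on the same side of 0, from -0.94 to -0.81 for *Ccnd1*, 0.93 to 1.24 for *Ccnd2*, -0.93 to -0.59 for *Cdk6* and 0.53 to 0.63 for *Cdkn1c*.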

How the data were processed

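RNA-seq libraries of E13.5 retinas (2 wildtype, 2 Nrf1 f/f;Six3-Cre) were analysed at the level of genes. The authors aligned reads to mm10 with TopHat2 (version 2.7.2 in the submitters' processing notes) and counted them with HTSeq, and the deposited counts are whole and not normalized. The authors also deposited normalized values on a log2 scale. The submitters' processing notes name DESeq and limma as well, without their roles, so which of them made these values is not given in the sources used here. The 5 HTSeq summary rows, 74.0% to 75.0% of all entries and mostly alignments that were not unique, stayed out of library sizes and tests. The labels number the libraries as replicates and do not say whether the pools were separate, so p-values measure only the spread between these libraries, which differed beyond counting noise (chi-square per gene 47.6 in the wildtype and 59.1 in the mutant).

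The 10 genes and all lists were chosen with earlier results of these data known. Of 24062 genes, 15762 passed filterByExpr (minimum count 10) in edgeR 4.0.16 (R 4.3.3). TMM factors and the quasi-likelihood test without further terms were used, with Benjamini-Hochberg adjustment over all tested genes. A call needed a 1.4-fold change or more and an adjusted p no higher than 0.2. Standard errors are the absolute log2 fold change divided by the square root of F. In simulation, 34 of 67 genes changed 1.5-fold, 51 of 68 changed 2-fold and 60 of 63 changed 4-fold were called in the right direction. Of 15386 unchanged genes, 29 were called. The share of changed genes was far smaller there than the share called in the data (20.9%). These rates therefore do not give the power of the test here.

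Alternatives were DESeq2 1.42.0, limma 3.58.1 on the deposited log2 values, glmTreat, an adjusted p of 0.05, scaling by library size, by upper quartiles or without markers of other tissues, other filters, a replicate block and each library left out. Named genes are the 10 genes, every called gene of the list of 31, the extremes of the other lists and *Cdkn1a*. Other genes (*Cdkn2c*, *Cdkn2d*, *Mycn*, *Tfdp2*, *E2f3*, genes with E2F letters, genes that overlap the 10, and marker genes at 0) were named after their values were seen. Exons and positions come from GENCODE M21 and promoters from RefSeq. Shared stretches of 50 bases were sought in all annotated transcripts. A comparison of proteins was planned and not run.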

Additional observations from a re-analysis of the deposited data

How the results depend on the processing

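No direction of the 10 G1 genes reversed under the 12 alternatives that estimated the change anew, and 7 of the 10 genes kept their side of the call in all 14. Upper-quartile scaling brought *Ccnd3* past 1.4-fold (log2 fold change 0.50). The test against 1.4-fold (glmTreat) called 743 genes lower and 1188 higher, against 1268 and 2024, and 1 of the 10 genes higher, with *Cdkn1c* (0.58) lost. Limma on the deposited values called 669 genes lower and 816 higher and 1 of the 10 genes lower, with *Ccnd1* (-0.87) lost. Longest transcripts in place of merged exons gave -11.5 percentage points for the share of *Ccnd1* and 5.18 for that of *Ccnd3*, against -8.86 and 3.12. The causes were not tested. With each library left out in turn, log2 fold changes ranged from -0.94 to -0.81 for *Ccnd1*, 0.93 to 1.24 for *Ccnd2*, 0.41 to 0.51 for *Ccnd3* (called without wildtype replicate 2), -0.14 to -0.02 for *Cdk4*, -0.93 to -0.59 for *Cdk6*, 0.23 to 0.43 for *Ccne1*, -0.37 to -0.17 for *Ccne2*, -0.07 to -0.04 for *Cdkn1b*, 0.53 to 0.63 for *Cdkn1c* and -0.48 to -0.11 for *Rb1*. In these fits the lone library was assumed to vary like the other genotype.

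Replicate numbers are shared between the genotypes, but the deviations of same-numbered libraries did not go together (correlation over 15762 genes -0.0048). With the replicate number as a block 1256 genes were lower and 1970 higher, and 2 of the 10 G1 genes were called lower and 2 higher, with log2 fold changes of -0.88 for *Ccnd1* and 1.08 for *Ccnd2*. *Ccnd3* passed the limit on the adjusted p and lay just under the fixed limit of 1.4-fold, so small shifts of its value decide its call.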
